A study of Mus musculus with 10 samples.

Results

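Mitochondrial ribosomal proteins were read here as the genes whose platform symbol starts with Mrpl or Mrps followed by a number, each represented by its brightest probe set (a set of short oligonucleotides against 1 transcript) by mean over all 10 arrays. This gave 74 genes among 12393 with a single symbol on the array, 49 of the large ribosomal subunit and 25 of the small one. The arrays came from microdissected mouse hindbrain with pharyngeal arches 1 to 4 at stage E10.5, 5 from wildtype embryos and 5 from embryos homozygous for a gene trap in Fbln1, the gene of the matrix protein fibulin-1. Both groups came from crosses between heterozygous carriers of the trap, with no further allele or treatment in the labels, and yolk sac served for genotyping. Litters, and whether an array holds 1 embryo, are not stated in the labels. Values are log2 expression, so a difference of 1 is a doubling, and differences are null minus wildtype throughout. The series title names signalling by fibroblast growth factor 8, and the labels state no question about mitochondria.

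Mitochondria have their own ribosomes, which translate the few proteins encoded by mitochondrial DNA, all of them parts of the respiratory chain and ATP synthase. The ribosomal RNAs come from mitochondrial DNA, while the proteins are encoded in the nucleus, made in the cytosol and imported. Some of these proteins have relatives in bacterial ribosomes and others are found only in mitochondria. Loss of single members in humans causes disease of heart, brain and muscle, tissues with a high demand for respiration.

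Wildtype replicate 5 stood apart from the other arrays in several markers of liver and yolk sac, and is named beside the results it touches. It read 6.53 for Afp and 6.39 for Apoa2, where the other 9 arrays read at most 2.72 and 3.58, and 3.91 for Alb and 4.82 for Apoa1. Ttr, the 1 marker of this list over the filter described below, did not follow. It read 8.24 on wildtype replicate 5 and up to 9.07 on the others (null replicate 4). Apob did not follow either, at 2.31 beside up to 2.39.

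Between null and wildtype tissue these transcripts differed little. Of the 74 genes, 70 were over the expression filter (log2 over 4 on at least 5 of 10 arrays, whatever the genotype), and 0 passed an adjusted p of 0.05 in either direction (limma, Benjamini-Hochberg adjustment over all 9801 probe sets kept). Among all 5910 genes over the filter the same test called 0.0338% lower and 0% higher, and among all 9801 probe sets 0.0204% lower. At an unadjusted p of 0.05, 2 members were lower and 0 higher in null tissue, against 8.98% of all genes lower and 3.84% higher. These 2, Mrpl44 and Mrps22, make up 2.86% of the members measured, below the share of all genes. They were also the 2 members whose null arrays all lay below the wildtype arrays, against 2.03% of all genes and 1.95% of all probe sets. In 0 members did all null arrays lie above, against 0.846% of genes and 0.816% of probe sets. In bulk tissue, fewer cells of a type and less RNA per cell cannot be told apart in any of these values. Without wildtype replicate 5 or null replicate 3 the count of lower members was 1, without null replicate 8 it was 4, and without wildtype replicate 1 it was 5. The 8.98% of all genes belongs to the fit on all 10 arrays. Their share in these other fits is not given here, so these counts have no matching background.

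The size of the differences was small as well as their number. The median log2 fold change of the 70 members was -0.06, beside -0.04 for all genes over the filter. The middle 50% of members lay between -0.15 and 0.02, a narrower span than the -0.20 to 0.11 of all genes. In 64 of the 70 the estimate was smaller than 0.25 on the log2 scale in either direction. Each member's own 95% interval stayed within 1 log2 unit of 0, and 41 of the 70 stayed within 0.5. The lowest bound was -0.91, for Mrpl44, and the highest 0.66, for Mrps24. These intervals hold for single genes and are not adjusted for their number. The spread within a genotype was ordinary, with a median SD of 0.26 for members and 0.27 for all genes.

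**Figure D1:**
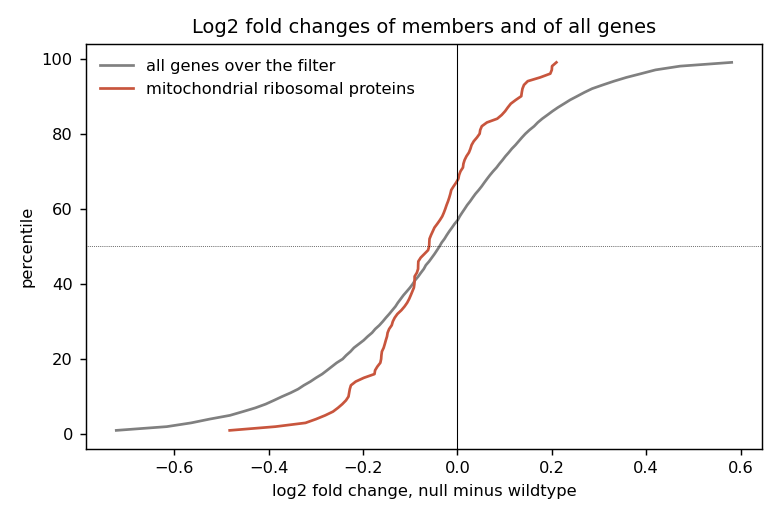
Percentiles of the log2 fold change (null minus wildtype) for 70 mitochondrial ribosomal proteins (red) and 5910 genes over the filter (grey); the horizontal axis is log2 fold change and the vertical axis the percentile. The red curve crosses 50% at -0.06 and the grey at -0.04, and the red one is steeper on both sides.

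Most members had a slightly lower mean in null tissue, 47 of 70 or 67.1%, beside 56.9% of all genes. With quantile normalization between arrays, 53.5% of members had the lower mean and the median was -0.04, beside 0.004 for all genes. This normalization put 71 members over the filter, so the set differed as well as the scale. The share was 55.7% with the 3′ to 5′ signal difference of the actin control probes, a measure of RNA quality, as a covariate. Without wildtype replicate 5 it was 58.6%, and the median was -0.03 for members and -0.03 for all genes. Other fits went the other way. The median of members was -0.18 with the replicate number as a block, and as low as -0.11 with 1 array left out. The 56.9% of all genes belongs to the main fit, and their share in these other fits is not given here.

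**Figure D2:**
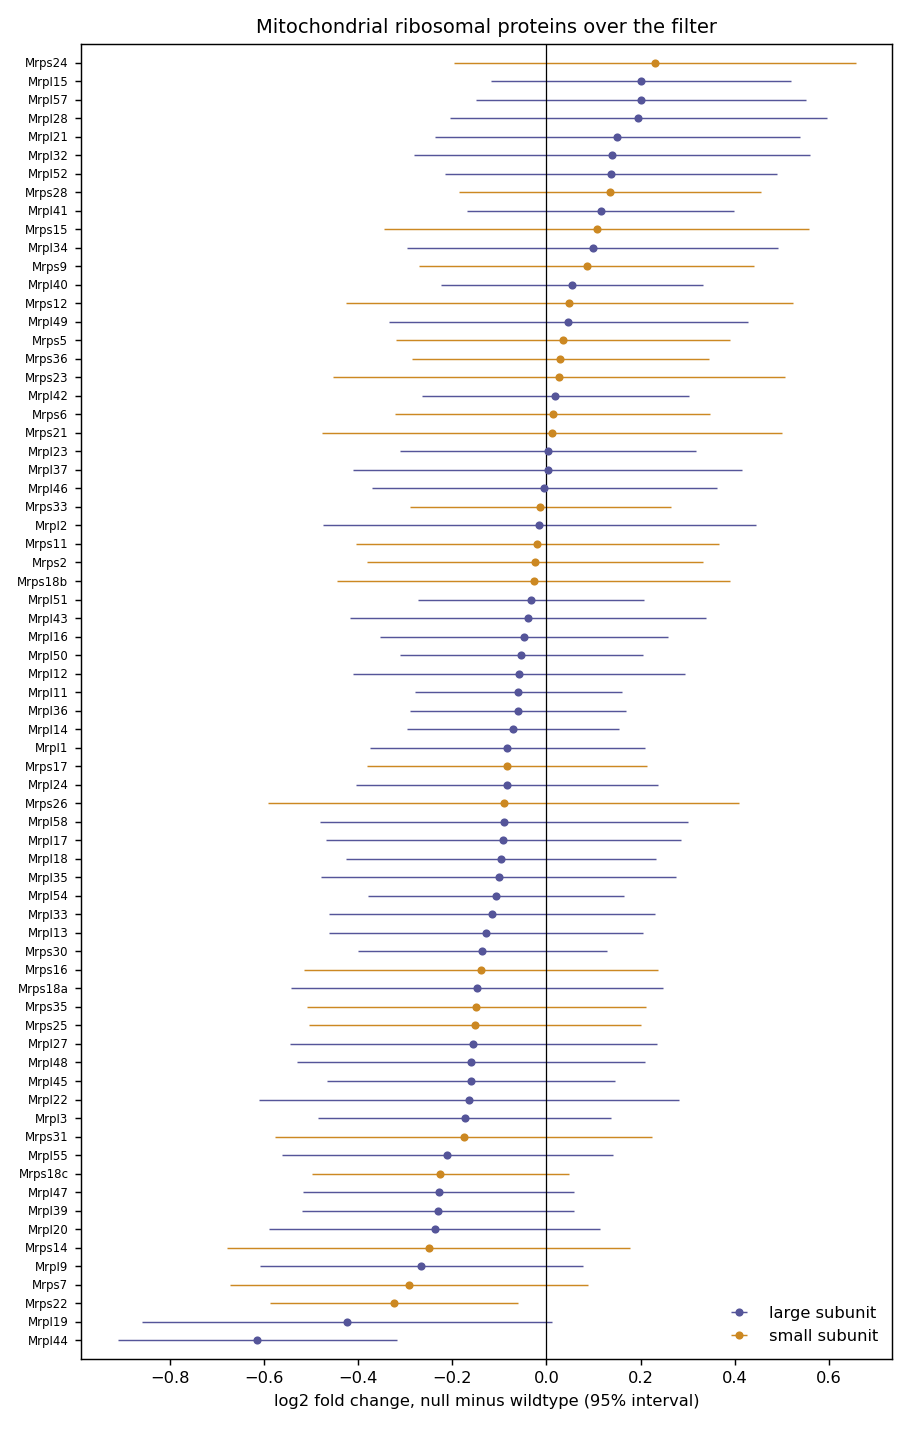
Log2 fold change (horizontal axis, null minus wildtype) with its 95% interval from limma for each of the 70 members over the filter, ordered from lowest to highest, for the large subunit (blue) and small subunit (orange). Mrpl44 and Mrps22 are the members whose interval lies wholly below 0, and 0 intervals lie wholly above it.

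The 4 stretches of DNA printed here lie just before the RefSeq start of members at the low end of that order, and were chosen because they hold 1 of the motifs searched. Mrpl47 and Mrps7, also at the low end, hold neither motif in their windows. Nuclear genes for mitochondrial proteins are known to be read by NRF1, a factor that binds a GC-rich palindrome, and by GABP, a factor of the ETS family. Each stretch is the 150 bases before the start, 5′ to 3′ on the gene's strand, in build GRCm38.p6. Capitals mark a match to the NRF1 letters (GCGCA and GCGC with any single base between them) or the ETS letters (CCGGAAG), searched on both strands.
Mrpl44 (chr1:79775868-79776017, + strand): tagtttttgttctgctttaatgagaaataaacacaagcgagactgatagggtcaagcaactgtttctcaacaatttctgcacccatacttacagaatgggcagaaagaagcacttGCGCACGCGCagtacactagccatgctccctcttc
Mrps22 (chr9:98601680-98601829, - strand): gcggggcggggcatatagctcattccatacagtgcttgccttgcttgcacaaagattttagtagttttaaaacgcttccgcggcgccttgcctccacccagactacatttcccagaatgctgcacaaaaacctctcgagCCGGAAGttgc
Mrpl9 (chr3:94443186-94443335, + strand): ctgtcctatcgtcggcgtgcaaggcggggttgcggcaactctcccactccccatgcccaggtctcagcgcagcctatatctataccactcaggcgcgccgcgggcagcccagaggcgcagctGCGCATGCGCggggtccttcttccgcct
Mrpl39 (chr16:84735245-84735394, - strand): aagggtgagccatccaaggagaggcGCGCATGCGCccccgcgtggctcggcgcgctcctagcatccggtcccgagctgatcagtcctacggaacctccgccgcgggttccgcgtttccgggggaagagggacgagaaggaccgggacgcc

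Counted from the start, the NRF1 match begins at base -35 in Mrpl44, -28 in Mrpl9 and -125 in Mrpl39, and the ETS match at base -11 in Mrps22. RefSeq promoter windows (250 bases before to 50 after a start) were found for 65 of the 74 members, 71 windows in all. The NRF1 letters stood in 16.9% of these windows, beside 4.60% of all 32851 windows and 6.38% of those of protein-coding genes. The ETS letters stood in 33.8%, beside 8.86% of all windows and 11.6% of coding ones. The letters AAGATGGCG, which YY1 can bind, stood in 9.86% against 1.40%, and TATAAA in 7.04% against 13.6%. The other motifs searched were nearer to all windows, CCAAT at 39.4% against 37.4% and CACGTG at 9.86% against 7.15%. NRF1 and ETS matches overlapped each other in 0 windows, and NRF1 matches overlapped one another in 1, that of Mrps26. Such matches describe letters and are not binding sites.

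Medians with and without these letters lay close together in null against wildtype tissue. The 12 members over the filter with the NRF1 letters had a median log2 fold change of -0.08, and the 52 without them -0.05. For the ETS letters the medians were -0.09 over 24 members and -0.06 over 40. The transcript of NRF1 itself (Nrf1) differed by 0.24 on the log2 scale (SE 0.16, adjusted p = 0.596 in limma). That of Gabpa, the DNA-binding subunit of GABP, differed by 0.04 (SE 0.23, adjusted p = 0.968 in limma).

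Members also often lay head to head with another gene. Of the 65 with a promoter window, 22 (33.8%) had a protein-coding neighbour on the opposite strand starting within 1000 bases upstream, beside 8.48% of all protein-coding genes with a window. Mrpl46 and Mrps11 are such a pair with each other, 42 bases apart, and differed by -0.004 and -0.02. Hira, a histone chaperone that starts 113 bases from Mrpl40, had -0.72 (SE 0.21, limma adjusted p = 0.219), while Mrpl40 had 0.05. For 9 members the neighbour was over the filter as well, and Hira was the 1 neighbour with an unadjusted p under 0.05, where 12.8% of all genes were in either direction.

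Mrpl44, a large-subunit protein with a ribonuclease-like fold in which human variants cause cardiomyopathy, was the member with the smallest p. On its brightest probe set the wildtype arrays read 8.49, 8.76, 8.60, 8.95 and 8.93 (replicates 1 to 5) and the null arrays 7.91, 8.08, 8.34, 8.03 and 8.30 (replicates 3, 4, 5, 7 and 8). Every null array lay below every wildtype array. The log2 fold change was -0.61 (SE 0.14, 1.53-fold lower), with an unadjusted p of 0.000658 and an adjusted p of 0.116 in limma. The exact permutation p was 0.00794, and 5 against 5 arrays allow none smaller.

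The other Mrpl44 probe sets did not follow. The second, with a mean of 7.76 over all arrays beside 8.44 for the brightest, read 7.77, 7.10, 7.84, 7.78 and 7.39 in wildtype and 7.81, 8.05, 7.72, 8.03 and 8.13 in null tissue. It was higher in null tissue by 0.37 (SE 0.16), with groups that overlapped. The third read 7.32 to 8.07 in wildtype and 7.63 to 7.91 in null tissue, a difference of 0.03 (SE 0.15). Averaged over its 3 probe sets, Mrpl44 differed by -0.07 (SE 0.12, adjusted p = 0.856 in limma). The lower reading of Mrpl44 therefore held on 1 of 3 probe sets, and which of them reads the gene's transcripts best was not tested.

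Mrps22, a small-subunit protein found only in mitochondria and also a human disease gene, has 1 probe set. Wildtype arrays read 8.59, 8.66, 8.64, 8.56 and 8.91, and null arrays 8.15, 8.42, 8.39, 8.54 and 8.24. The groups did not overlap, though the highest null array (8.54) lay close below the lowest wildtype array (8.56). The log2 fold change was -0.32 (SE 0.12, 1.25-fold lower), with an unadjusted p of 0.0198 and an adjusted p of 0.323 in limma, and an exact permutation p of 0.00794. Without null replicate 3 its unadjusted p was 0.0527, and without wildtype replicate 5 it was 0.0531.

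**Figure D3:**
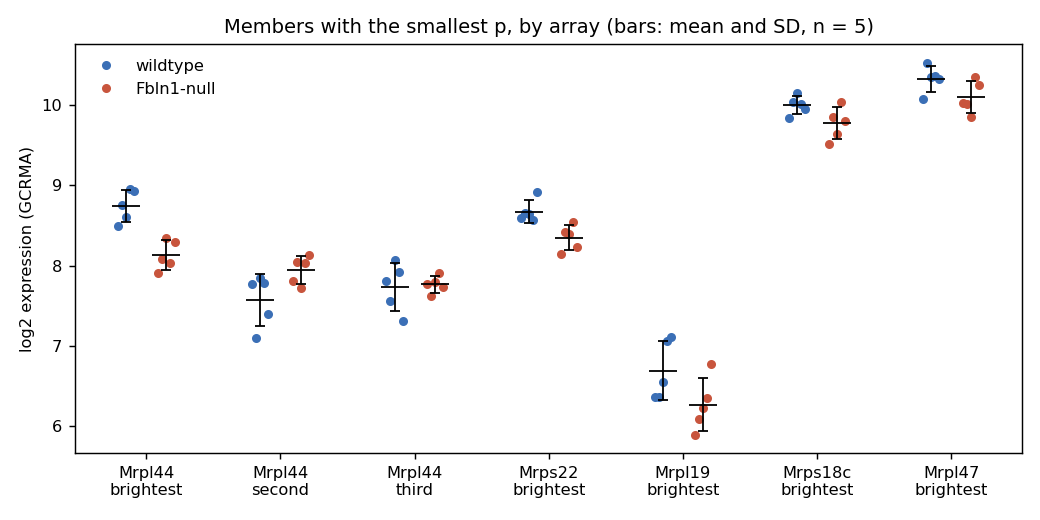
Log2 expression (vertical axis) on each array for the 3 probe sets of Mrpl44 and the brightest probe sets of Mrps22, Mrpl19, Mrps18c and Mrpl47, with wildtype in blue, Fbln1-null in red, and bars for the mean and SD of 5 arrays. The groups are apart for the brightest Mrpl44 probe set (means 8.75 and 8.13) and for Mrps22 (8.67 and 8.35) and overlap for the others.

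Other members at the low end had overlapping groups. Mrpl19, whose relative in bacteria lies at the interface of the subunits, read 6.37, 6.37, 6.55, 7.06 and 7.11 in wildtype and 5.89, 6.09, 6.23, 6.35 and 6.77 in null tissue. The difference was -0.42 (SE 0.20) with an adjusted p of 0.419 in limma. Wildtype replicates 4 and 5 stood above the other wildtype arrays in this gene, and its probe set is of a type that can match transcripts of several genes. Mrps7, which binds the head of the small subunit, had -0.29 (SE 0.18) and Mrpl9 -0.27 (SE 0.16). Mrpl39, a large-subunit protein related to a tRNA synthetase, had -0.23 (SE 0.13). Mrpl47, at the exit of the tunnel for the new peptide, had -0.23 (SE 0.13), and Mrps18c -0.23 (SE 0.13). The adjusted limma p of these 5 genes was 0.506 to 0.541.

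At the high end no member came close to the test. Mrps24, a small-subunit protein near the entry of the messenger RNA, differed by 0.23 (SE 0.20), with wildtype replicate 4 at 6.76 and the remaining arrays at 7.60 to 7.91. Without that array it differed by 0.03. Mrpl15 and Mrpl57 had 0.20 each (SE 0.15 and 0.16), Mrpl28 0.20 (SE 0.18), Mrpl21 0.15 and Mrps28 0.14. Mrpl52 and Mrpl41, which are large-subunit proteins found only in mitochondria, had 0.14 and 0.12, and Mrpl52 had 0.009 without wildtype replicate 4. The adjusted limma p of these 8 genes was 0.624 to 0.787. The probe sets of Mrps24 and Mrpl15 are of a type that can match transcripts of several genes.

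Members picked for their role, whatever their values, were not past the test either, nor was Mrpl11, picked for its brightness. Mrps12, of the decoding centre, differed by 0.05 (SE 0.22), and its arrays ran from 5.57 to 6.39 in wildtype and 5.56 to 6.66 in null tissue. Mrpl3, close to the site where peptide bonds are made, had -0.17 (SE 0.14). Mrpl12, a protein of the stalk that receives translation factors and a reported partner of the mitochondrial RNA polymerase, had -0.06 (SE 0.16), and Mrpl11, at the base of the stalk, -0.06 (SE 0.10). Mrpl11 was the brightest member, with wildtype arrays at 10.72 to 10.85 and null arrays at 10.61 to 10.82. For it the 95% interval was -0.28 to 0.16, the narrowest of the 70. The probe sets of Mrpl11 and Mrps12 are of a type that can match transcripts of several genes. Mrps16, a small-subunit protein mutated in a human respiratory chain disorder, had -0.14 (SE 0.17).

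The difference between the subunits was not tested. Of 46 large-subunit members over the filter 33 were lower on average in the null arrays, with a median difference of -0.08. Of 24 small-subunit members 14 were, with a median of -0.02. These counts follow structure rather than name for Mrps30 and Mrps18a, which were named as small-subunit proteins and sit in the large one. They had log2 fold changes of -0.14 (SE 0.12) and -0.15 (SE 0.18), and the other members of the family of Mrps18a, Mrps18b and Mrps18c, -0.03 (SE 0.19) and -0.23. Members with a bacterial counterpart in the ribosome nomenclature had a median of -0.06 over 41 genes, and those found only in mitochondria -0.05 over 29. Mrps36, since assigned to the 2-oxoglutarate dehydrogenase complex, had 0.03.

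Reading the same gene on another probe set often changed the sign of these small differences. How often it does so for genes outside the members is not given here. Further probe sets over the filter existed for 20 members, 29 in all. Of these, 16 had the direction of the brightest and 13 the opposite, and the members with at least 1 opposite reading were Mrpl3, Mrpl13, Mrpl15, Mrpl39, Mrpl44, Mrpl48, Mrpl49, Mrpl50, Mrps9 and Mrps23. Only 2 of the 29 had an unadjusted limma p under 0.05, the second Mrpl44 probe set and 1 of Mrpl3, beside 12.4% of all probe sets in either direction. Both were higher in null tissue while the brightest probe set of the gene was lower. That Mrpl3 probe set was dim, read 5.30 to 5.57 in wildtype and 5.49 to 6.21 in null tissue, and differed by 0.36 (SE 0.16). Mrpl15 had 0.20 on its brightest probe set and -0.28 (SE 0.13), -0.003 and -0.15 on its further ones, and averaged over all of them it differed by -0.058.

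**Figure D4:**
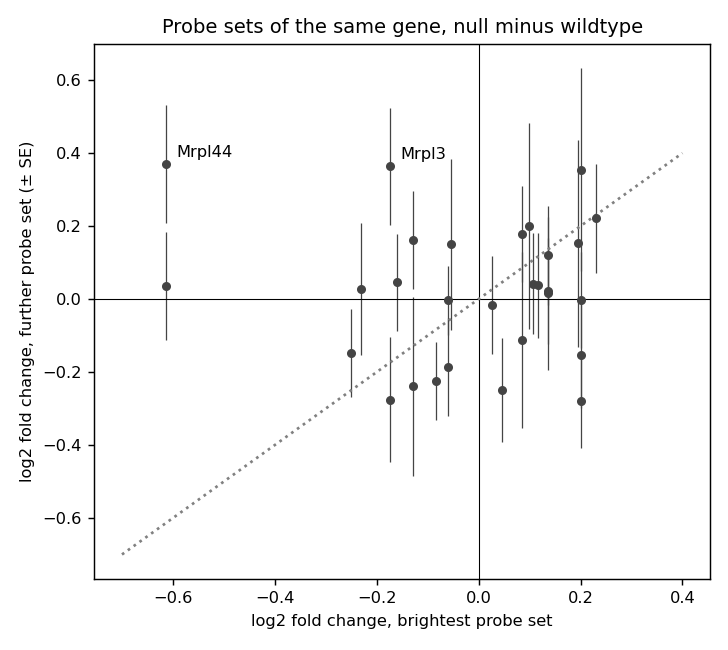
Log2 fold change of each further probe set over the filter (vertical axis, with SE) against that of the brightest probe set of the same gene (horizontal axis); the dotted line marks equal values. Of 29 points 13 lie in the quadrants of opposite sign, among them the 2 labelled ones, of Mrpl44 (-0.61 and 0.37) and Mrpl3 (-0.17 and 0.36).

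These transcripts were high or low together on single arrays. The mean deviation of an array from the members' means over all arrays was -0.10, 0.05, -0.08, 0.05 and 0.24 in wildtype replicates 1 to 5, and -0.16, -0.10, -0.001, -0.02 and 0.11 in null replicates 3, 4, 5, 7 and 8. The groups overlapped, at 0.03 ± 0.14 for wildtype and -0.03 ± 0.10 for null tissue (mean and SD, n = 5 each). In wildtype replicate 5 66 of the 70 members stood above their own mean, 18 had their highest reading there and 0 their lowest. This is the array that also stood apart in several liver and yolk sac markers, whose part in the members' readings was not tested. In null replicate 3 13 of 70 stood above it and 16 had their lowest reading. The mean deviation of all genes was 0.03 and 0.00 on these arrays, and the median 0.03 and -0.01. The share of all genes above their own mean, or at their highest or lowest, is not given for these arrays. Large and small subunits moved alike in both, with 0.23 and 0.25 in wildtype replicate 5, and -0.17 and -0.13 in null replicate 3. The actin control difference was 2.30 on wildtype replicate 5 and 2.59 on null replicate 3, where null arrays ran from 2.19 to 2.85 and wildtype arrays up to 2.38.

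**Figure D5:**
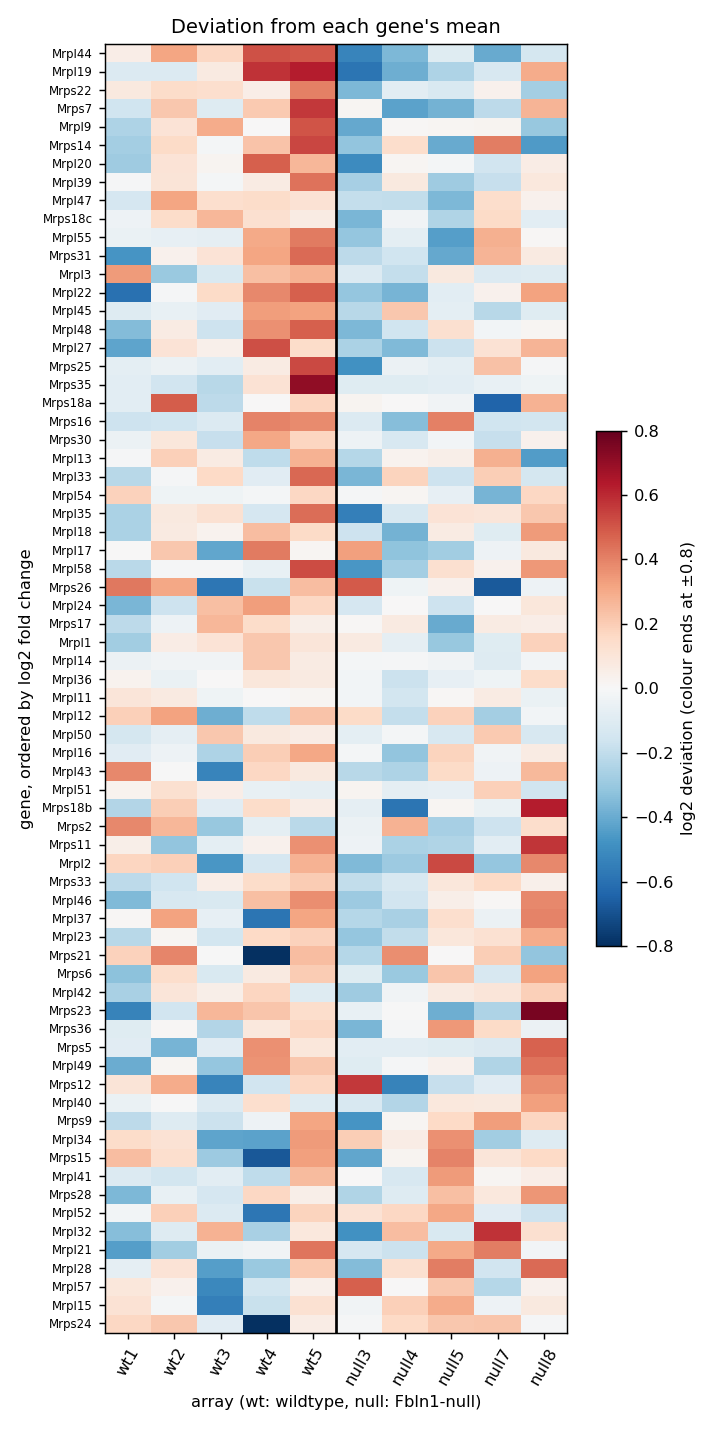
Deviation of each of the 70 members (rows, ordered by log2 fold change) from its mean over 10 arrays, by array (columns, wildtype left of the line), with red for higher and blue for lower log2 values. The column of wildtype replicate 5 is red for 66 members, and that of null replicate 3 is red for 13.

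Members under the filter gave no further difference. Mrpl10 read 3.58 to 4.71 in wildtype and 3.80 to 4.19 in null tissue, and Mrpl38 3.73 to 4.57 and 3.73 to 4.25. Mrpl4 read 3.15 to 4.15 and 3.37 to 3.89, and Mrps34 averaged 3.22 over all arrays. Their groups overlapped, and at these dim levels the processing compresses differences. RefSeq lists 78 protein-coding genes with such names, of which Mrpl30, Mrpl53, Mrps10 and Mrps27 were not analysed here.

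Mitoribosomal proteins with other names and the factors that work with the ribosome held 0 genes past the adjusted threshold. The list of other names also held Oxa1l, an insertase rather than a ribosomal protein. Of its 4 genes over the filter 2 had lower means and 2 higher ones (median log2 fold change -0.02). Dap3, a GTP-binding small-subunit protein, was at 0.14 (SE 0.13). Ptcd3, an RNA-binding small-subunit protein, had -0.10, and Oxa1l, the inner-membrane insertase that receives new peptides, -0.12. Of 7 translation factors 3 had lower means (median 0.02), with Mtif2, the initiation factor, at -0.24 (SE 0.15), Gfm1, an elongation factor, at -0.18 and Mtfmt, which formylates the initiator tRNA, at 0.16. Of 4 mitochondrial tRNA synthetases 3 had lower means (median -0.12), with Rars2 at -0.23, Tars2 at -0.16 and Hars2 at -0.09. In these 3 groups 0 genes had an unadjusted limma p under 0.05, against 12.8% of all genes.

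Ribosome assembly and mitochondrial DNA expression held a few genes at the unadjusted threshold, which 8.98% of all genes passed as lower and 3.84% as higher. Of 13 assembly and ribosomal RNA factors 10 had lower means (76.9%, median -0.16), beside 56.9% of all genes. At an unadjusted limma p of 0.05 2 were lower and 1 higher. The mean deviation of this list was 0.005 to 0.17 on wildtype arrays and -0.16 to -0.003 on null arrays. These ranges nearly met without overlapping, and the list was not tested. For mitochondrial DNA expression they overlapped, at -0.14 to 0.26 on wildtype and -0.21 to 0.12 on null arrays. For the mass and import genes described below they overlapped too, at -0.07 to 0.18 and -0.13 to 0.06. Of the assembly factors, Mterf4, which brings a methyltransferase to the ribosome, had -0.79 (SE 0.21, adjusted p = 0.177 in limma). Noa1, a GTPase of small-subunit assembly, had -0.58 (SE 0.21, adjusted p = 0.313 in limma). Eral1, a chaperone of the small ribosomal RNA, had 0.39 (SE 0.16, adjusted p = 0.363). Of 12 genes of mitochondrial DNA expression 8 had lower means (median -0.13) and 2 an unadjusted p under 0.05, both lower. Tfam, which packages and transcribes mitochondrial DNA, averaged 6.97 ± 0.20 in wildtype and 6.64 ± 0.13 in null arrays (SD, n = 5 each), with every null array below the wildtype arrays. Its difference was -0.34 (SE 0.13) with an adjusted p of 0.332 in limma. Tefm, the elongation factor of the mitochondrial polymerase, had -0.43 (SE 0.19) and Ssbp1, a single-stranded DNA binding protein, -0.19.

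Markers of mitochondrial mass and import and regulators of mitochondrial biogenesis also had 0 genes past the adjusted threshold. Of 18 mass and import genes 12 had lower means (median -0.12). Tomm22, the import receptor of the outer membrane, had -0.40 (SE 0.11, limma adjusted p = 0.182), with no overlap of the groups, Mdh2 -0.25 and Timm50 -0.31. Cs, citrate synthase, had -0.15, Hspa9 -0.07 and Vdac1, the outer-membrane channel, 0.00. Of 7 regulators 3 had lower means (median 0.00), among them Yy1 at -0.09 and Pprc1 at -0.12, and Myc had 0.27 (SE 0.23). On wildtype replicate 5 the mean deviation was 0.09 for mass and import and 0.19 for mitochondrial DNA expression, and on null replicate 3 -0.06 and -0.21.

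The Fbln1 signal matched the labels and the tissue markers were present in part. The brighter Fbln1 probe set read 3.83 to 5.11 in wildtype and 2.52 to 2.85 in null tissue (exact permutation p = 0.00794), though it was under the filter. Over the filter were 4 of 8 hindbrain and neural markers on the array, Sox2 and Pax6 among them, and 7 of 12 of the arch mesenchyme, among them Prrx1 and Twist1, while Egr2, Hand2 and Dlx5 were not. Of other cell types 3 of 10 heart, 3 of 8 erythroid (all globins), 4 of 7 endothelial, 1 of 6 leukocyte, 1 of 7 liver and yolk sac and 4 of 7 epithelial markers were over it. Mean log2 levels per array of these lists overlapped between the genotypes. They ran from 4.38 to 4.70 in wildtype and 4.20 to 4.53 in null arrays for hindbrain, and from 5.17 to 5.53 and 5.22 to 5.53 for arch mesenchyme. All 4 hindbrain markers over the filter had lower means in null tissue (median -0.33), with Pax6 at -0.52 (SE 0.15), Sox2 at -0.44, Hoxa2 at -0.22 and Nes at -0.19. Of the 7 mesenchyme markers 3 had lower means (median 0.03), with Lhx8 at 0.41 (SE 0.16) and Tfap2a at 0.51 (SE 0.29). The adjusted p of Pax6 was 0.222 and that of Lhx8 0.339 in limma. The heart list had 3.59 to 4.19 and 3.67 to 4.10, with Myh6, Nkx2-5 and Nppa near the floor, and the erythroid list 5.63 to 6.32 and 5.96 to 6.29. The liver and yolk sac list had 3.01 to 4.98 and 2.89 to 3.39, the highest value being wildtype replicate 5, and the leukocyte list 2.87 to 3.22 and 3.02 to 3.43. The epithelial list had 4.42 to 4.54 and 4.28 to 4.60, and the endothelial list 4.72 to 4.88 and 4.63 to 4.78. The part of these cell types in the members' values was not tested. Wildtype replicate 4 was the 1 array with Xist signal (9.68) and low Y-linked signal. On each array 9618 to 9943 probe sets were over log2 4.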

How the data were processed

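Affymetrix arrays read biotin-labelled RNA copied from the 3′ end, per the labels. The deposited log2 values come from GCRMA (submitters' processing notes), in a version not given in the sources used here. This method corrects background by probe sequence, normalizes across arrays and pulls dim probe sets to a floor, which compresses differences near it. Gene symbols came from the platform annotation, which can be old. Of 22626 probe sets (64 controls left out) 20380 had 1 symbol, and 127 belonged to members. Probe sets ending in _x_at or _s_at (6 of the 70 used) can match several genes.

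All probe sets over the filter were fitted with limma 3.58.1 in R 4.3.3 (lmFit and eBayes, genotype alone, two-sided) and adjusted by Benjamini-Hochberg over all 9801. The fit was also run on simulated data, with an outcome not given here. Its probe sets varied independently, unlike the members, which were high or low together on single arrays. Exact permutation tests ran over all 252 assignments of 5 and 5 arrays. Where nothing says that samples are separate litters, p-values measure the spread between these arrays.

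Members and lists were chosen with earlier results of these data known, and the lists received no test of their own. Members were named if past the threshold, among the 8 smallest p in each direction, the 3 brightest, of special role, or with a further probe set of opposite direction; of other lists, the 3 smallest p. Further genes (Yy1, Gabpa, Hspa9, Cs, Vdac1, the tissue markers, Hira and its neighbours, Mrps36 and the members under the filter) were chosen after their values were seen. Alternatives were scaling, filter, floor, variance model, array weights, replicate block, embryo sex, actin difference, arrays left out and an average over each gene's probe sets. Promoter windows and names came from RefSeq, GRCm38.p6.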

Additional observations from a re-analysis of the deposited data

Results flagged for a closer look

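In 62 checks of single arrays against the other 4 of their genotype (30 named members and the mean deviation of all members), 4 stood apart, where chance gives about 5%. Wildtype replicate 5 stood above the other wildtype arrays in Mrps22 (8.91 against 8.56 to 8.66), Mrpl39 (9.05 against 8.60 to 8.72) and Mrpl41 (9.98 against 9.52 to 9.64). Wildtype replicate 4 stood below them in Mrps24 (6.76 against 7.60 to 7.90).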

How the results depend on the processing

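In 21 other fits 0 members passed an adjusted p of 0.05 (the smallest was 0.0527, Mrpl44 with array weights) and 0 were higher at an unadjusted p of 0.05. The fit with embryo sex and the fit without wildtype replicate 4, the 1 array with Xist signal, are the same fit counted under both names. In the fit reported, 0 passed an adjusted p of 0.1. The count of lower members, 2, was 1 when each gene's probe sets were averaged, 5 without wildtype replicates 1 and 2, and 1 to 5 with 1 array left out, where the median log2 fold change was -0.11 to -0.03. With the replicate number as a block 7 members were lower and the median was -0.18. The share of all genes called lower in these other fits, and their median in the block fit, are not given here. Numbers 3, 4 and 5 occur in both genotypes, and only arrays with these numbers inform the difference in that fit. Deviations of same-numbered arrays correlated at -0.19, -0.34 and 0.16. Whether same-numbered arrays share a litter or batch is not stated in the labels and was not tested. Mrpl15 was -0.058 when its probe sets were averaged, and the cause was not tested. Near log2 4 the compressed scale limits what can be seen.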
